A study of Mus musculus with 24 samples.

Results

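Livers of N-RAS-/- mice with toxic injury were compared with livers of N-RAS-/- mice with cholestatic injury. The comparison took the 3 arrays titled NRAS-/- CCl4 (N30, N31 and N32) and the 3 titled NRAS-/- BDL (N10, N11 and N12), 6 of the 24 arrays of the study, over the 21144 genes that the array's annotation gives under a single symbol. All mice in these groups were males of 8 to 10 weeks, bred on a C57BL/6J background, and carried the gene-targeted loss of N-RAS, a small GTPase of the RAS family. For toxic injury, carbon tetrachloride (CCl4) in corn oil was injected 2 times a week for 4 weeks, and for cholestatic injury the bile duct was ligated (BDL) and the liver taken on day 28. Both injuries were done as separate experiments with controls of their own, 3 N-RAS-/- mice injected with corn oil (N27, N28 and N29) and 3 N-RAS-/- mice with a sham operation (N07, N08 and N09). In the direct comparison, injury and experiment therefore cannot be told apart. Wildtype mice received the same treatments, and their CCl4 and BDL groups (3 arrays each) were used to ask where the difference between the injuries depended on genotype. All arrays of the study, wildtype included, also entered the fit that gave the spread of each gene.

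CCl4 is turned into a reactive radical by cytochrome P450 enzymes, mainly CYP2E1 in the hepatocytes around the central vein, and repeated doses kill those cells and leave scars that spread from there. Ligation of the bile duct instead holds back bile acids, so that injury starts at the portal tracts, where bile duct cells multiply in the ductular reaction and portal fibroblasts make matrix. Bile acids are made from cholesterol in hepatocytes, mostly through the enzyme CYP7A1, and the bile acid receptor FXR holds that synthesis down.

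The arrays bore out the genotype labels. The log2 signal of Nras lay between 4.55 and 4.92 in the N-RAS-/- BDL livers and between 5.27 and 5.55 in the N-RAS-/- CCl4 livers, against means of 6.93 ± 0.47 (SD, n = 3) in wildtype BDL and 7.68 ± 0.31 (SD, n = 3) in wildtype CCl4 livers. Hepatocyte genes were abundant in all 6 arrays. Alb, which encodes albumin, read 13.28, 13.33 and 13.31 in the BDL arrays N10, N11 and N12 and 13.26, 13.36 and 13.26 in the CCl4 arrays N30, N31 and N32. Of 10 defining hepatocyte genes, 9 did not pass the test between the injuries and Apoa1 was 1.34-fold lower in CCl4. The Apoa1 call was lost without any 1 of N10, N12, N30 or N31 (adjusted p of 0.0633 to 0.082).

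Several arrays stood apart. The BDL array N12 carried skeletal muscle transcripts, with a mean log2 signal of 7.59 over 20 muscle genes against 4.26 to 4.39 in the other BDL arrays. Acta1, the skeletal muscle actin, read 10.88 there, 4.08 and 4.69 in the other BDL arrays, and 4.29 to 5.06 in the CCl4 arrays. The BDL array N11 read highest of the 3 BDL arrays for every one of the 35 measured genes of DNA replication and mitosis. The 6 compared arrays all had high Y-linked signal (means over 4 genes of 6.84 to 7.81), but the 3 N-RAS-/- sham arrays (3.27 to 3.56) and the oil array N28 (3.0) did not, which goes against their label as males. A list of 15 female-biased liver genes had means of 9.65 to 10.03 in those sham arrays and of 5.73 to 5.93 in the BDL arrays. Values that use these controls therefore also carry genes that differ between the sexes. The direct log2 differences do not use them. The SE and adjusted p of the direct comparison do, since the fit took the spread of each gene from all groups of the study. Y-linked signal was mixed within the N-RAS-/- oil group (3.0, 7.69 and 7.91) and the wildtype sham group (3.19, 3.59 and 7.87). For genes that differ between the sexes, that mixture is part of the spread behind the direct p-values.

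Between the injuries, 2636 genes were higher in CCl4 (12.5% of those tested) and 2357 were lower (11.1%), at an adjusted p under 0.05 (limma on log2 values, Benjamini-Hochberg over all genes). With a difference of at least 2-fold as well, 624 were higher (2.95%) and 850 lower (4.02%). The median difference over all genes was -0.016 on the log2 scale. In the control livers of both experiments, 137 genes were higher in corn oil than in sham (0.648%) and 119 lower (0.563%), and these counts were 32 and 34 without the sham array N08. Against its own control, CCl4 raised 3127 genes (14.8%) and lowered 2113 (9.99%). BDL raised 1642 (7.77%) and lowered 951 (4.5%), and these counts were 730 and 337 with the Y-linked signal as a term in the fit. The share of BDL calls that were higher was 63.3% as deposited, 57.9% after quantile normalization and 48.7% after median centring. When each control was subtracted from its injury before the injuries were compared, 820 genes remained higher (3.88%) and 925 lower (4.37%), called in the same direction both ways, and 1 gene was called in the opposite direction. A gene called both ways is described below as called after the controls were subtracted. The comparisons with controls share arrays with the direct one, so their values are given side by side. The labels do not say how the mice of a group were kept or processed, so the p-values measure the spread between these arrays. RNA came from whole liver, so fewer cells of a type and less RNA per cell cannot be told apart.

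**Figure D1:**
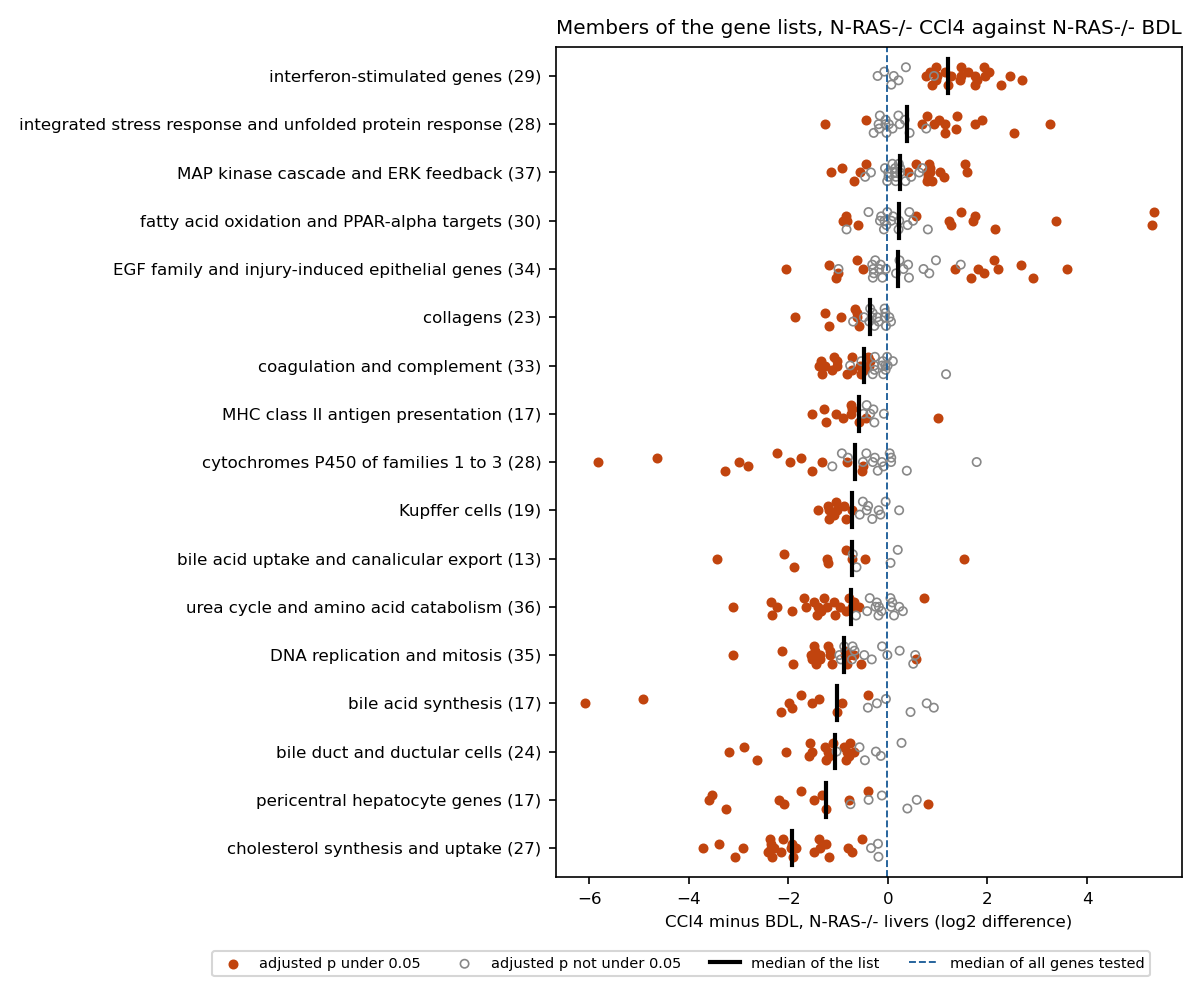
Log2 difference of N-RAS-/- CCl4 minus N-RAS-/- BDL livers (horizontal axis) for each measured member (points) of 17 gene lists (rows, number of members in brackets). Filled points passed at an adjusted p under 0.05, black bars are list medians and the dashed line is the median of all genes. Cholesterol synthesis lay farthest to the left with a median of -1.93 and interferon-stimulated genes farthest to the right with a median of 1.2.

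Most genes of bile acid synthesis were lower in toxic than in cholestatic injury. Cyp7a1, the rate-limiting enzyme of the classic pathway, read 10.68, 10.56 and 11.33 in BDL and 4.38, 5.04 and 4.86 in CCl4. The groups did not overlap, and the gene was 68.5-fold lower in CCl4 (log2 difference -6.10 ± 0.36, SE, adjusted p = 6.77e-11), the largest of the 15 largest falls. Akr1d1, the 5-beta-reductase that follows in the pathway, read 9.61, 9.17 and 9.48 in BDL and 3.95, 5.01 and 4.54 in CCl4, a 30.3-fold difference. Both genes fell from the oil level in CCl4 (log2 differences of -6.14 for Cyp7a1 and -4.69 for Akr1d1), while in BDL their differences from sham of -0.98 and -0.32 did not pass. Cyp8b1, the 12-alpha-hydroxylase (added to the named genes after its values were seen), behaved differently, since it fell from control in both injuries, by a log2 difference of -6.24 in CCl4 and of -3.35 in BDL. It stayed 3.38-fold lower in CCl4 than in BDL. Of 17 synthesis genes, 11 were lower in CCl4 and 0 higher, with a median of -1.03, and 9 of the 11 were called after the controls were subtracted. Further along the pathway, Baat, which conjugates bile acids to taurine and glycine, was 4.42-fold lower, and Amacr, a peroxisomal racemase of side-chain shortening, was 3.80-fold lower. The remaining 6 genes did not pass.

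Several transporters of bile acids were lower as well. Slc51b, a subunit of the basolateral exporter OST, read 8.05, 8.08 and 7.17 in BDL and 3.83, 4.03 and 4.43 in CCl4. The 12.7-fold difference (log2 difference -3.67 ± 0.35, adjusted p = 8.96e-08) was made of a rise from sham in BDL of 2.69 and a fall from oil in CCl4 of -1.20, so the injuries lay on opposite sides of their controls. Abcc3, another exporter at the basolateral membrane, was likewise above sham in BDL (0.55) and below oil in CCl4 (-1.07). Slc51a, the partner subunit of Slc51b, and the exporter Abcc4 did not pass (log2 differences of 0.10 and 0.14). Of 15 genes of basolateral export and bile acid sensing, 7 were lower in CCl4 and 1 higher (median -0.49). Abcb11, the canalicular bile salt export pump, read 10.42, 10.54 and 9.93 in BDL and 8.54, 8.49 and 8.19 in CCl4, 3.70-fold lower. Its difference from sham in BDL was 0.07 and did not pass. Of 13 genes of uptake and canalicular export, 8 were lower in CCl4 and 1 higher, with a median of -0.73, and 6 of the 8 were called after subtraction. Slco1b2, an organic anion uptake carrier, was 4.24-fold lower and Slc10a1, the sodium-taurocholate carrier, 1.79-fold lower. The exception was Slco1a1, a male-biased uptake carrier that was 2.88-fold higher in CCl4 (adjusted p = 0.0319), and this call was lost without any 1 of N10, N11, N12, N30 or N31 (adjusted p of 0.0529 to 0.165). It fell about as far below control in both injuries (log2 differences of -5.03 in CCl4 and -5.16 in BDL), and the difference after subtraction was 0.14. Among nuclear receptors of bile acid sensing, Nr1i3, the receptor CAR, was lower by -2.30 on the log2 scale. Nr1i2 was lower too, by -1.43 to -1.76 with 1 array left out (adjusted p of 2.32e-06 to 6.45e-05). In the same fits Nr0b2, singled out with its values known, was lower by -1.83 to -2.39 (adjusted p of 0.00138 to 0.0143). Nr1h4, which encodes FXR and was also singled out with its values known, did not pass at -0.49 (adjusted p = 0.0579).

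The cholesterol pathway moved most uniformly of the lists. Idi1, the isopentenyl diphosphate isomerase, read 10.39, 10.25 and 9.40 in BDL and 6.31, 6.32 and 6.25 in CCl4, 13.2-fold lower (log2 difference -3.72 ± 0.27, adjusted p = 1.80e-09). Nsdhl, a sterol dehydrogenase of the later steps, read 11.73, 11.72 and 10.97 in BDL and 8.22, 7.95 and 8.09 in CCl4, 10.5-fold lower. For both genes every CCl4 array lay below every BDL array. Fdft1 (squalene synthase) was 8.42-fold lower and Hmgcs1 (HMG-CoA synthase) 7.53-fold lower. Of 27 genes of synthesis and uptake, 24 were lower in CCl4 and 0 higher, and 22 were called after the controls were subtracted. The difference lay mainly on the toxic side: CCl4 lowered 23 of the 27 against oil, and BDL raised 4 and lowered 0 against sham. Hmgcs1 was among the genes that BDL raised (log2 difference 1.05, adjusted p = 0.00172). The 3 genes that did not pass, named after their values were seen, were Npc1l1, Scarb1 and Hsd17b7, at -0.34, -0.20 and -0.19.

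**Figure D2:**
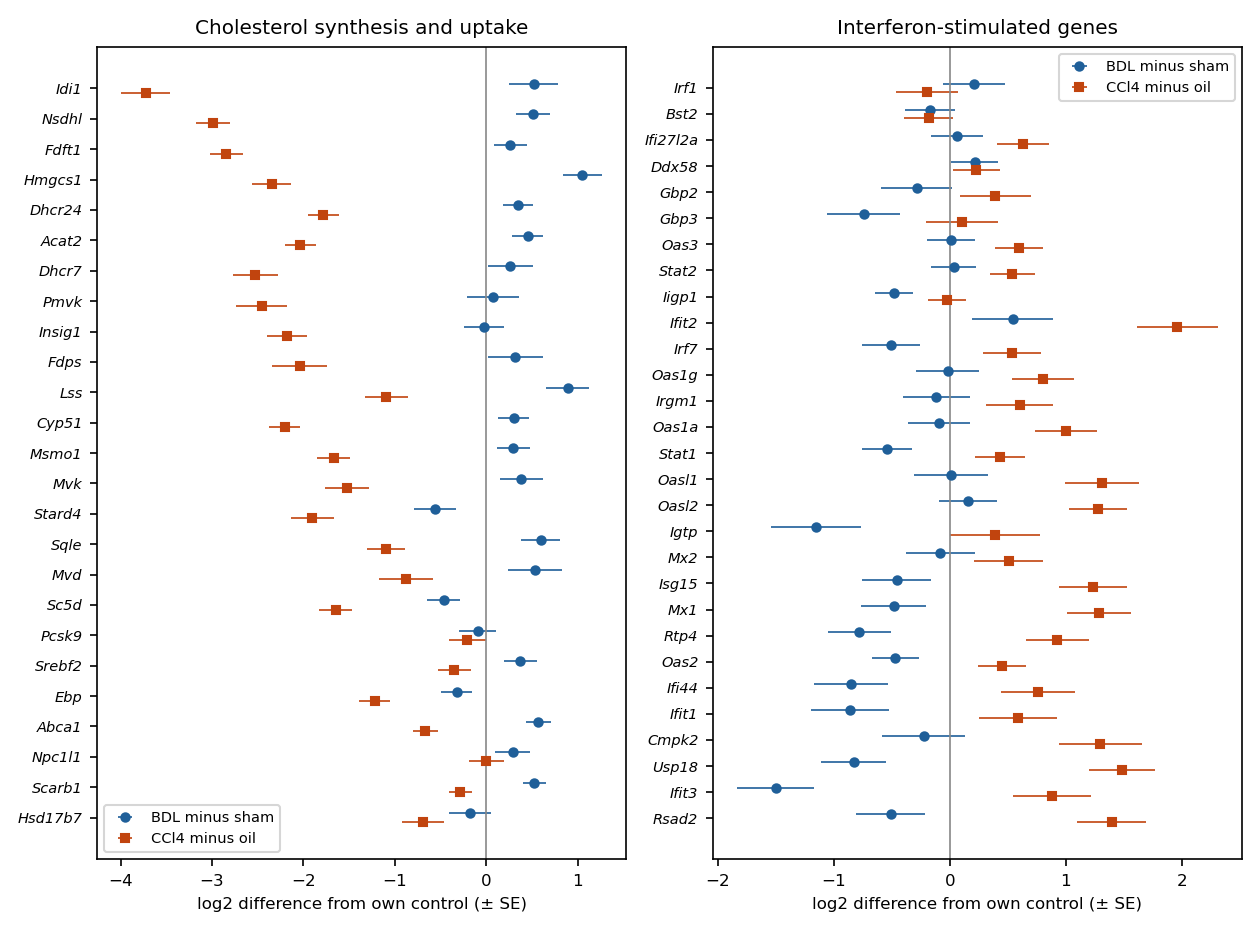
Log2 difference from the own control (horizontal axis, points with SE bars) for 25 of the 27 cholesterol genes and the 29 interferon-stimulated genes in N-RAS-/- livers, with BDL minus sham as circles and CCl4 minus oil as squares. For cholesterol genes most squares lie left of 0 while the circles stay near it, and for interferon-stimulated genes most squares lie to the right and many circles to the left.

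Several other hepatocyte programs followed the same direction. Of 28 cytochromes P450 of families 1 to 3, 13 were lower in CCl4 and 0 higher (median -0.67), led by Cyp2c38, which read 10.20, 9.69 and 10.22 in BDL and 4.22, 4.47 and 3.95 in CCl4 (56.6-fold lower). Genes of the Cyp2c, Cyp4a, Gstm and Mup families have near-identical copies, and probe sets may take signal from more than one of them. Cyp2e1 itself read 11.87, 11.66 and 11.85 in BDL and 11.71, 11.77 and 11.54 in CCl4. Those values overlapped (log2 difference -0.12, adjusted p = 0.713), and Cyp2e1 lay below its control by similar amounts in CCl4 (-1.26) and BDL (-1.34). Of 17 pericentral genes, 11 were lower in CCl4 and 1 higher (median -1.24). Slc1a2, a glutamate transporter of the cells around the central vein, was 9.51-fold lower, and it lay below control in both injuries (-5.37 in CCl4 and -2.46 in BDL). Of 21 periportal genes, 8 were lower and 0 higher (median -0.25), and 3 of these were called after subtraction. Amino acid metabolism was lower in 21 of 36 genes and higher in 1 (median -0.75), with 16 of the 21 called after subtraction. Bhmt, which remethylates homocysteine, read 12.73, 12.50 and 12.77 in BDL and 8.92, 9.54 and 10.18 in CCl4 (8.68-fold lower). Asl, an enzyme of the urea cycle, was 4.69-fold lower. Coagulation and complement genes were lower in 18 of 33 and higher in 0 (median -0.48), among them F7, coagulation factor VII (2.61-fold). Of 26 glucose genes, 9 were lower and 3 higher (median -0.41). Other lists leaned less. Of 28 hepatocyte transcription factors, 4 were lower and 2 higher (median -0.18), and 1 in each direction was called after subtraction. Of 17 conjugating enzymes, 4 were lower and 2 higher (median -0.23). Of 19 growth hormone and IGF genes, 5 were lower and 1 higher (median -0.05), and 1 of the 5 was called after subtraction. Both injuries lowered part of these programs. Against sham, BDL lowered 13 of the 28 cytochromes P450, 10 of the 17 pericentral genes and 11 of the 36 amino acid genes. It raised 1, 2 and 0 of them. Against oil, CCl4 lowered 19, 14 and 25 and raised 0, 0 and 1. The sham values carry the low Y-linked signal given above.

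Bile duct genes were higher in cholestatic injury. Spp1, which encodes osteopontin and is made by duct cells and by macrophages, read 11.83, 11.74 and 11.63 in BDL and 8.72, 8.77 and 8.14 in CCl4. It was 9.12-fold lower in CCl4, where its difference from oil of 0.08 did not pass, while BDL raised it by 3.99 over sham. Krt19, the keratin that defines duct cells, read 5.89, 5.09 and 7.14 in BDL and 4.46, 4.79 and 4.13 in CCl4. The highest BDL reading was that of N12, and the log2 difference of -1.58 became -1.03 without it (adjusted p = 0.0178). Krt7 and Epcam were also highest in N12, and without it Epcam no longer passed (log2 difference -0.58, adjusted p = 0.236). Epcam also failed to pass without N30 and without N32 (adjusted p of 0.0728 and 0.0752). Cd24a and Prom1, surface proteins of duct and progenitor cells, were 6.2-fold and 7.41-fold lower in CCl4. Of 24 duct genes, 18 were lower in CCl4 and 0 higher (median -1.06), and 11 were lower without N12. N12 read highest of the BDL arrays for 14 of these 24 genes and for all 20 muscle genes, and whether its muscle content has a part in the difference was not tested. BDL raised 17 of the 24 over sham, and CCl4 raised 3 and lowered 1 against oil. Sox9, the transcription factor of duct and progenitor cells, overlapped between the injuries (8.53 to 9.53 in BDL and 8.76 to 9.46 in CCl4) and did not pass. It was above control in both, by 2.10 in BDL and 1.29 in CCl4.

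**Figure D3:**
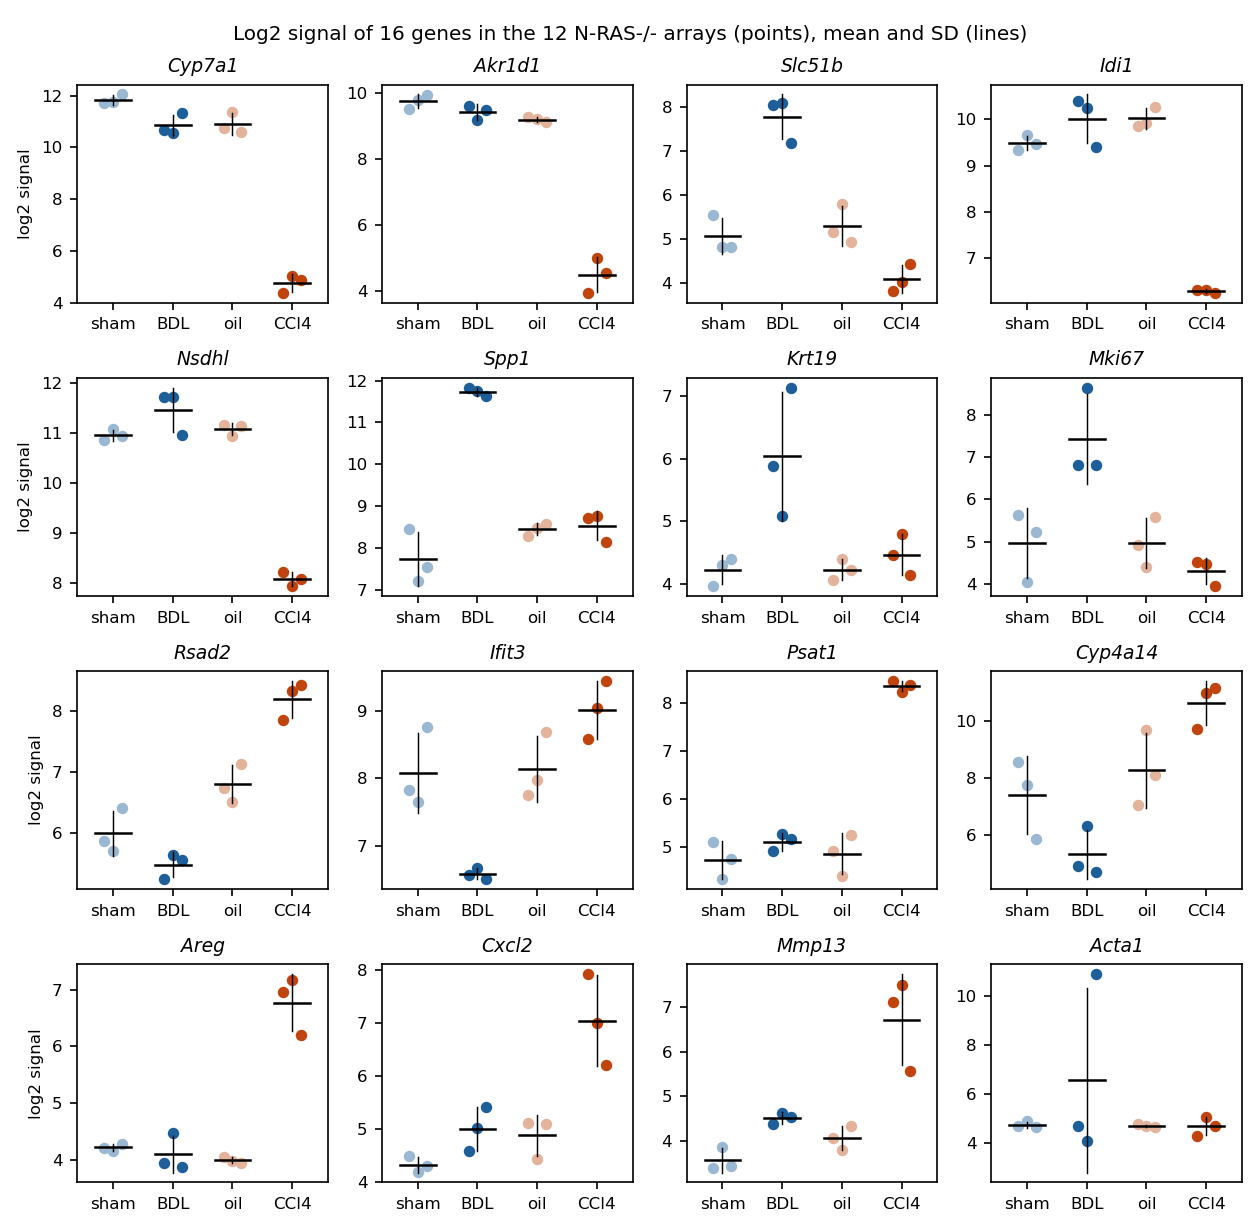
Log2 signal (vertical axis, own scale for each panel) of 16 genes in the 12 N-RAS-/- arrays. Points are arrays in the order sham, BDL, oil and CCl4, and lines give the mean and SD of 3 arrays. Cyp7a1 and Idi1 are low in the CCl4 column, Spp1 is high in the BDL column, Psat1 in the CCl4 column, and a single BDL array is high for Acta1.

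Cell division genes were higher in BDL. Mki67, the proliferation marker, read 6.80, 8.64 and 6.82 in BDL and 4.51, 4.46 and 3.95 in CCl4, 8.65-fold lower in CCl4 with no overlap. Of 35 genes of DNA replication and mitosis, 21 were lower in CCl4 and 1 higher (median -0.88). Without N11 the lower count was 12, and Mki67 remained at -2.50 (adjusted p = 0.000241). Kif20a, a mitotic kinesin, was 4.36-fold lower and became -1.41 on the log2 scale without N11. Plk1 and Cdk1, mitotic kinases added after their values were seen, went to -1.11 and -0.50 without N11, and Cdk1 no longer passed (adjusted p = 0.179), nor did it without N30 or N31 (0.0724 and 0.0621). BDL raised 20 of the 35 over sham. In CCl4, 4 were above oil. The gene in the opposite direction was Pcna, the clamp of DNA synthesis, named after its values were seen and 1.48-fold higher in CCl4, a call that was lost without any 1 of N10, N12, N30 or N32 (adjusted p of 0.0552 to 0.149).

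Some matrix genes were lower in CCl4. Col3a1, a fibrillar collagen, read 8.61, 8.98 and 8.99 in BDL and 6.94, 7.30 and 6.72 in CCl4, 3.66-fold lower (log2 difference -1.87 ± 0.34, adjusted p = 2.36e-04). It was above control in both injuries, by 3.09 in BDL and by 1.0 in CCl4. Col1a1 read 8.00, 7.65 and 8.43 in BDL and 7.43, 7.54 and 7.23 in CCl4. Its difference of -0.63 passed (adjusted p = 0.0444) but not without N10, N12, N30, N31 or N32 (adjusted p of 0.0564 to 0.244). Of 23 collagen genes, 8 were lower in CCl4 and 0 higher (median -0.36), 2 of the 8 were called after subtraction, and the lower count was 3 without N32, 4 without N12 and 5 without N30. Acta2, the smooth muscle actin of myofibroblasts, overlapped (6.41 to 9.14 in BDL and 7.42 to 8.78 in CCl4), as did Timp1, the inhibitor of matrix proteases (6.91 to 7.28 and 5.92 to 7.31). Both were above control in each injury. The highest Acta2 reading in BDL was that of N12, and without N12 its log2 difference was 0.99 (adjusted p = 0.118). Of 22 stellate cell and myofibroblast genes, 2 were lower in CCl4 and 2 higher (median -0.24), both below the shares over all genes. N12 read highest of the BDL arrays for 13 of these 22. Whether its muscle content has a part in this was not tested. Mmp13, an interstitial collagenase, went the other way and read 4.38, 4.64 and 4.53 in BDL and 7.10, 7.48 and 5.56 in CCl4, 4.58-fold higher. Its list did not lean that way. Of 27 matrix proteases and inhibitors, 3 were higher in CCl4 and 2 lower (median -0.09), both below the shares over all genes (12.5% and 11.1%). After subtraction, 1 of the 3 was called. BDL raised 16 of the 27 over sham, and CCl4 raised 11 over oil. Pdgfc, a growth factor of mesenchymal cells, was 3.67-fold lower in CCl4, and BDL raised it over sham by 2.06. Of 27 genes of the TGF-beta and CTGF axis, 8 were lower and 4 higher (median 0.08). N12 was highest of the BDL arrays for 15 of 20 portal fibroblast genes. In that list 4 were lower in CCl4 and 1 higher, and 0 of these were called after subtraction.

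Macrophage genes that passed the test were lower in CCl4 more often than higher. Vsig4, a complement receptor of resident Kupffer cells, read 9.63, 10.35 and 10.14 in BDL and 9.03, 8.97 and 8.50 in CCl4, 2.30-fold lower with no overlap. Other Kupffer cell markers were less clear. With 1 array left out, Clec4f was at -0.58 to -1.04 and did not pass without N11, N31 or N32 (adjusted p of 0.167, 0.0705 and 0.08). Timd4 was at -0.25 to -0.55 in these fits and passed in none of them (adjusted p of 0.0519 to 0.402). Of 19 Kupffer cell genes, 10 were lower in CCl4 and 0 higher (median -0.73), and 3 of the 10 were called after subtraction. The BDL array N11 read highest of its group for 17 of the 19 (mean log2 signals of 8.85 in N11, 8.35 in N10 and 8.55 in N12), and the lower count was 8 without it. Cx3cr1, the fractalkine receptor of monocyte-derived cells, read 6.08, 5.92 and 5.68 in BDL and 4.29, 4.18 and 4.37 in CCl4, and BDL raised it over sham by 2.12 while CCl4 did not differ from oil beyond the threshold (0.40). Of 23 genes of recruited and scar macrophages, 10 were lower and 3 higher (median -0.22). Mmp12, the macrophage elastase, was among the 3 that were higher (2.61-fold, adjusted p = 0.0130). Its call was lost without N30 or N31 (adjusted p of 0.0784 and 0.0809), and it lay far above control in both injuries, by 5.05 in CCl4 and 4.00 in BDL. Of 17 genes of MHC class II presentation, 10 were lower and 1 higher (median -0.57), and H2-Ab1, a class II beta chain, was 2.87-fold lower.

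Chemokine genes were divided. Cxcl5 and Cxcl14 were lower in CCl4 (5.32-fold and 5.06-fold). Cxcl2, which attracts neutrophils, read 4.58, 5.03 and 5.41 in BDL and 7.93, 7.0 and 6.21 in CCl4, 4.12-fold higher with no overlap. Cxcl5 spanned 4.98 to 7.55 in BDL and 3.57 to 4.01 in CCl4. Of 34 chemokine genes, 9 were lower and 7 higher. Neutrophil genes passed in 1 of 20 (higher) and 0 lower. Lymphocyte genes passed in 2 of 27 in each direction. Among them were Cd3e, a CD3 subunit of the T cell receptor complex, which was 3.07-fold higher in CCl4, and Jchain, the joining chain of secreted antibodies, at -1.92 on the log2 scale.

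Interferon-stimulated genes were higher in toxic injury. Rsad2, which encodes the antiviral protein viperin, read 5.25, 5.64 and 5.57 in BDL and 7.85, 8.32 and 8.42 in CCl4, 6.51-fold higher (log2 difference 2.70 ± 0.30, adjusted p = 5.62e-07). Ifit3, an antiviral protein induced by interferon, read 6.56, 6.67 and 6.51 in BDL and 8.58, 9.04 and 9.45 in CCl4, 5.45-fold higher. For both genes the lowest CCl4 array lay above the highest BDL array. Usp18, which removes the ubiquitin-like protein ISG15, was 4.81-fold higher. Of 29 genes, 22 were higher in CCl4 and 0 lower (median 1.2), and 9 of the 22 were called after the controls were subtracted. Against their own controls, CCl4 raised 14 of the 29 and lowered 0, and BDL raised 0 and lowered 1. The gene that BDL lowered was Ifit3 (log2 difference -1.50, adjusted p = 0.00338), whose CCl4 minus oil difference of 0.88 did not pass (adjusted p = 0.0569). Isg15, named after its values were seen, read 5.38, 6.0 and 7.32 in CCl4 and 4.36 to 4.93 in BDL, and its log2 difference of 1.61 became 1.06 without N32. Array N32 read highest of the CCl4 arrays for 22 of the 29 genes. The 7 genes that did not pass, named after their values were seen, were Irf1, Bst2, Ifi27l2a, Ddx58, Gbp2, Gbp3 and Ifit2.

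Promoters of these genes are shown because their factor, the STAT and IRF complex ISGF3, is known to bind an element with paired GAAA repeats. The stretch of 250 bases before the start site was searched for GAAANNGAAA on both strands, in RefSeq promoters of the GRCm38.p6 build. Copies of the motif can overlap one another, as they do in Isg15 and Oas1a. Of the 29 genes 21 had a promoter in that set, and 13 of those 21 (61.9%) held the motif, against 550 of 16214 genes in all (3.39%). Of the 13 genes with the motif 10 were higher in CCl4, and of the 8 without it 5 were. These windows of 120 bases lie before the start site, with capitals for the motif and reading in the direction of the gene, and Oas1a and Isg15 were added after their values were seen.
Ifit3, chr19:34583387-34583506, plus strand: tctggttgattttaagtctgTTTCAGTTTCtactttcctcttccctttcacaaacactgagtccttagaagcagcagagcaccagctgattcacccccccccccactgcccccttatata
Rsad2, chr12:26456473-26456592, minus strand: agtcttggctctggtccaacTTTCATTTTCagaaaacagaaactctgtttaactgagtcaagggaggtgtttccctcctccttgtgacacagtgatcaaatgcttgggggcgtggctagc
Isg15, chr4:156200819-156200938, minus strand: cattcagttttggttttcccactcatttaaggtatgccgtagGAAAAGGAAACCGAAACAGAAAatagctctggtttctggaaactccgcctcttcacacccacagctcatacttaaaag
Oas1a, chr5:120907526-120907645, minus strand: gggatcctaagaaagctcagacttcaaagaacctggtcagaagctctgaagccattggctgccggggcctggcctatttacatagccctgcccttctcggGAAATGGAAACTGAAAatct
A match describes these letters and was not tested as a binding site.

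Several genes of the integrated stress response were higher in toxic injury. Psat1, an enzyme of serine synthesis, read 4.91, 5.27 and 5.16 in BDL and 8.47, 8.24 and 8.38 in CCl4, 9.52-fold higher (log2 difference 3.25 ± 0.29, adjusted p = 3.24e-08). Fgf21, a hormone that the stressed liver releases, read 4.88, 4.47 and 4.36 in BDL and 6.32, 6.68 and 8.33 in CCl4, 5.81-fold higher with no overlap. Atf4, the transcription factor of this response, was 2.22-fold higher and Mthfd2, a mitochondrial folate enzyme, 3.73-fold higher. Of 28 genes of this response and of the unfolded protein response, 12 were higher and 2 lower (median 0.39), with 6 of the 12 called after subtraction. CCl4 raised 14 of them against oil and BDL raised 3 against sham. Atf3 was above control in both injuries, by 3.29 in CCl4 and by 1.78 in BDL, and 3.35-fold higher in CCl4. Asns, the asparagine synthetase, singled out with its values known, did not pass (0.09), and Shmt2, another enzyme of folate metabolism, was lower (-1.27). Atf4 and its partners are known to bind a C/EBP-ATF element, here searched as TGATGNAA in the same way on both strands. All 28 genes had a promoter and 5 of them (17.9%) held it, against 554 of 16214 (3.42%). Of the 5 genes with it 3 were higher in CCl4, and of the 23 without it 9 were. In the windows shown here the element stands in capitals on the opposite strand, as TTGCATCA, in the promoters of Fgf21 and Atf3. Psat1, Atf4, Mthfd2 and Shmt2 did not hold it in this window.
Fgf21, chr7:45615530-45615649, minus strand: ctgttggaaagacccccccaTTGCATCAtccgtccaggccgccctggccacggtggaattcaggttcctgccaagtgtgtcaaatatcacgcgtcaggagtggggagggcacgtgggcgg
Atf3, chr1:191183344-191183463, minus strand: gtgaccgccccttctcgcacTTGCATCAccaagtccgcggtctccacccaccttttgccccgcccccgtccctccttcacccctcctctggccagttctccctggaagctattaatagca

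Antioxidant genes were divided within 1 list. Gclc, the catalytic subunit of glutathione synthesis, read 10.22, 10.34 and 9.56 in BDL and 12.51, 12.68 and 12.47 in CCl4, 5.72-fold higher. Slc7a11, the cystine carrier (named after its values were seen), was 3.67-fold higher. Gstm3, a glutathione transferase, went the other way. It read 12.31, 12.38 and 11.75 in BDL and 8.06, 9.05 and 8.73 in CCl4, 11.5-fold lower, and it was above sham in BDL (1.62) and below oil in CCl4 (-1.77). Of 26 NRF2 targets and glutathione transferases, 5 were higher and 12 lower (median -0.56). Of 13 metallothionein and heat shock genes, 5 were higher and 0 lower, led by the small heat shock protein Hspb1 (5.65-fold).

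Fat metabolism differed by branch. Cyp4a14, an omega-hydroxylase of fatty acids and target of the receptor PPAR-alpha, read 4.91, 6.32 and 4.72 in BDL and 9.73, 10.99 and 11.15 in CCl4, 39.6-fold higher (log2 difference 5.31 ± 0.78, adjusted p = 2.34e-05). Cyp4a31 read 3.98, 4.08 and 5.89 in BDL and 7.86, 8.27 and 7.96 in CCl4. Its difference from oil in CCl4 of 0.51 did not pass, and it lay below sham in BDL (-2.38). Ppara itself was 2.34-fold higher, with a fall from sham in BDL of -1.58 and a difference from oil in CCl4 of 0.33 that did not pass. Cyp4a12a, a male-biased gene, was 40.5-fold higher, but its difference after subtraction was 0.40 (adjusted p = 0.952), it read 4.24 in the Y-low oil array N28 against 12.15 and 12.33 in the other oil arrays, and its call was lost without N12 or N30 (adjusted p of 0.0557 and 0.0533). Of 30 genes of fatty acid oxidation and PPAR-alpha targets, 10 were higher and 4 lower (median 0.22), and the higher count was 6 without N32. BDL lowered 14 of the 30 against sham and raised 0. Plin2, which coats lipid droplets, read 10.56, 10.80 and 10.26 in BDL and 12.25, 12.21 and 12.29 in CCl4, 3.27-fold higher, and Cidec, which fuses droplets, was 8.65-fold higher. Elovl6, an elongase of fatty acid synthesis, was 5.73-fold lower and Thrsp, a lipogenic regulator, 6.70-fold lower. Of 30 genes of synthesis and droplets together, 16 were lower and 6 higher (median -0.59).

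Genes of the EGF family and of injured epithelium moved in both directions. Areg, the EGF receptor ligand amphiregulin, read 3.95, 4.47 and 3.88 in BDL and 6.95, 7.16 and 6.2 in CCl4, 6.36-fold higher, and BDL did not differ from sham beyond the threshold (-0.12). Prrg4, a membrane protein with a Gla domain, read 5.79, 6.48 and 6.53 in BDL and 10.28, 9.85 and 9.49 in CCl4. It was above control in both injuries, by 5.73 in CCl4 and 2.24 in BDL. Nrg1, a ligand of the ErbB3 and ErbB4 receptors, was 3.51-fold higher and likewise raised in both (3.95 and 2.14), whereas Erbb3 was 4.12-fold lower. Of 34 genes of this list, 9 were higher and 6 lower (median 0.20).

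With N-RAS absent, the other members of the MAP kinase cascade were compared. Hras was 1.73-fold higher in CCl4 (adjusted p = 0.00247). Braf read 7.27, 7.40 and 7.27 in BDL and 8.37, 8.57 and 8.39 in CCl4, 2.19-fold higher, but it was also higher in oil than in sham (0.68, adjusted p = 0.0299), and its difference after subtraction of 0.45 did not pass. Dusp5, a phosphatase that ERK signaling induces, read 6.89, 6.22 and 6.66 in BDL and 8.63, 8.49 and 7.43 in CCl4, 3.01-fold higher, and it passed after subtraction (1.65, adjusted p = 0.00441). Mapk3, which encodes ERK1, was 1.91-fold lower. Of 37 genes of the cascade and its feedback, 13 were higher and 5 lower (median 0.24), and 5 of the 13 were called after subtraction.

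Among the 15 largest rises (log2 differences of 2.72 to 5.34), 11 were also called after the controls were subtracted, the exceptions being Cidec, Cyp4a12a, Elovl3 and Rab30. The oil and sham livers differed for 2 of the 15. Among them CCl4 was above oil for 6 and BDL below sham for 5. Mup3, a major urinary protein, read 9.25, 8.61 and 8.82 in BDL and 12.76, 12.68 and 12.62 in CCl4. Its difference from oil in CCl4 of 0.11 did not pass, and it lay below sham in BDL (-3.25). For Mup21 these values were 0.04, which did not pass, and -3.29. Elovl3, an elongase of very long fatty acids, was 13.1-fold higher in CCl4, and the controls differed by 4.94 between oil and sham. The sham arrays and the oil array N28 carry the low Y-linked signal given above. Of 15 male-biased liver genes, 6 were higher in CCl4 than in BDL and 1 lower (median 0.67), and 1 of the 6 was called after subtraction. The median difference of that list between oil and sham was 1.39. Among the 15 largest falls, 14 were also called after subtraction, Cyp2c39 being the exception, and the oil and sham livers differed for 0. CCl4 was below oil for 12, and BDL was above sham for 7. Serpinb6b, a serine protease inhibitor, and Cib3, a calcium-binding protein, were raised by BDL (4.27 and 4.13 over sham), while their differences from oil in CCl4 of 0.18 and -1.0 did not pass. Acmsd, an enzyme of tryptophan breakdown, was on opposite sides of its controls, with 1.26 in BDL and -3.17 in CCl4.

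**Figure D4:**
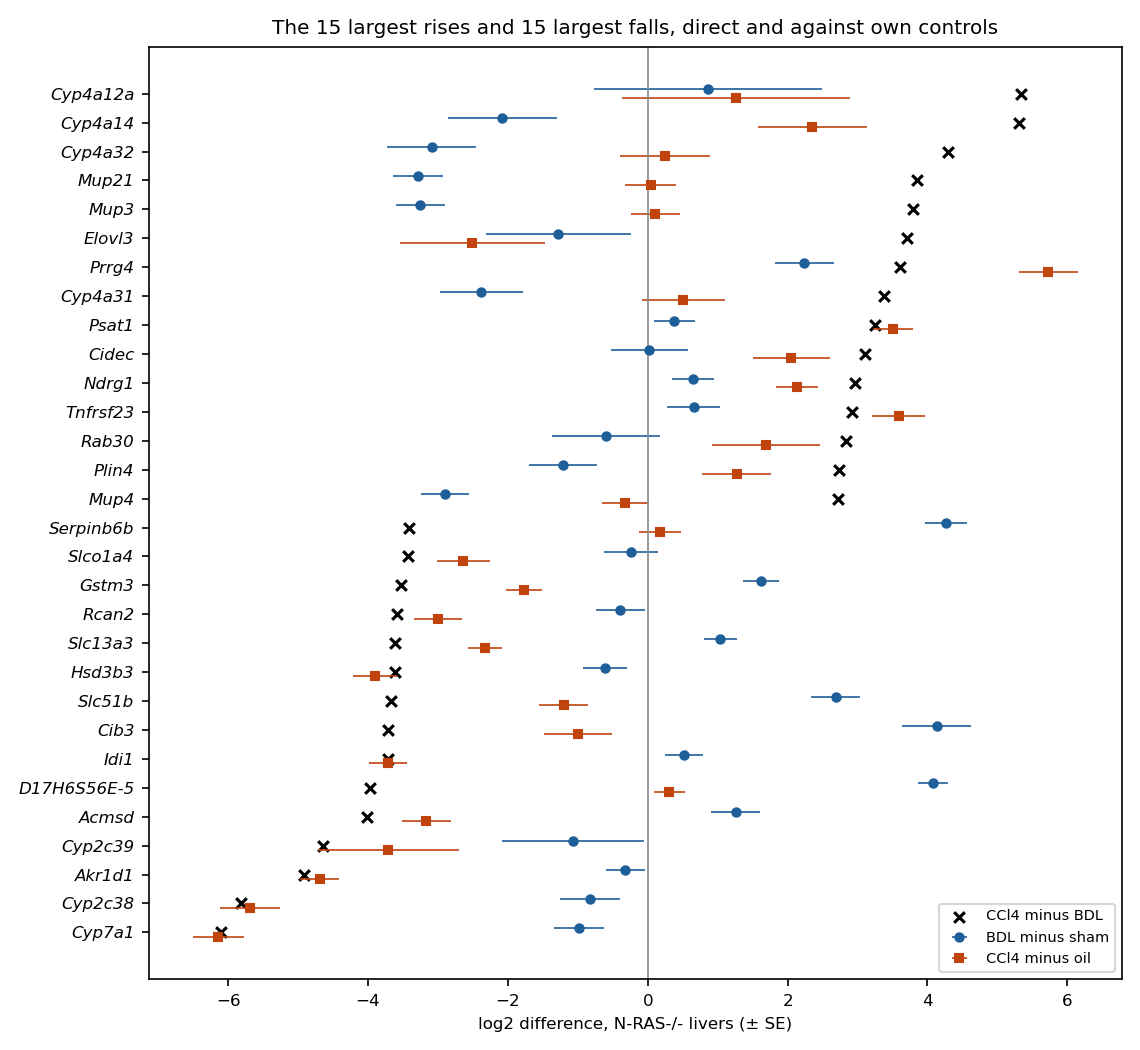
Log2 difference (horizontal axis) for the 15 largest rises and 15 largest falls of CCl4 against BDL in N-RAS-/- livers. Crosses are the direct difference, circles BDL minus sham and squares CCl4 minus oil, with SE bars. Crosses and squares lie close together for Cyp7a1 and Psat1, and circles lie far from 0 for Mup3, Serpinb6b and Cib3.

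The difference between the injuries was then set against that in wildtype livers, in 1 fit with a test of the genotype difference itself. The difference was higher in N-RAS-/- than in wildtype livers for 977 genes (4.62%) and lower for 628 (2.97%). The higher count was 649 without the wildtype CCl4 array N25. The median over all genes was -0.025. Bile acid synthesis held 7 of 17 genes with a lower difference and 0 with a higher one (median -0.84). Akr1d1 was among them: its log2 difference was -4.92 in N-RAS-/- and -2.42 in wildtype livers, and the gap of -2.50 passed (adjusted p = 6.31e-04). Cyp7a1 was lower in both genotypes (-6.10 and -4.30, gap -1.80, adjusted p = 0.0304). Slco1b2 was lower in N-RAS-/- livers (-2.08) but did not pass in wildtype (-0.19), and that gap of -1.89 passed too (adjusted p = 1.36e-04). Of 36 genes of amino acid metabolism 9 had a lower and 2 a higher difference, and of 35 genes of DNA replication and mitosis 8 had a lower and 0 a higher one. Kif20a, for example, was at -2.13 in N-RAS-/- and 0.49 in wildtype livers (gap -2.62, adjusted p = 0.00505). Its N-RAS-/- value was -1.41 without the BDL array N11, which read highest of its group for all 35 genes. No gap without N11 is given for this list. Cholesterol genes held 2 lower and 1 higher of 27 and interferon-stimulated genes 1 higher of 29. Ppara was higher in CCl4 than in BDL in N-RAS-/- livers (1.23) and lower in wildtype livers (-0.91), a gap of 2.14 (adjusted p = 4.60e-04). Hspb1 was higher in CCl4 in both genotypes, by less in N-RAS-/- (2.50) than in wildtype livers (5.0), a gap of -2.50 (adjusted p = 0.00241). Dusp5 was likewise higher by 1.59 and by 3.40, and Cxcl2 by 2.04 and by 3.96, with adjusted p of 0.00351 and 0.0131 for the gaps.

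**Figure D5:**
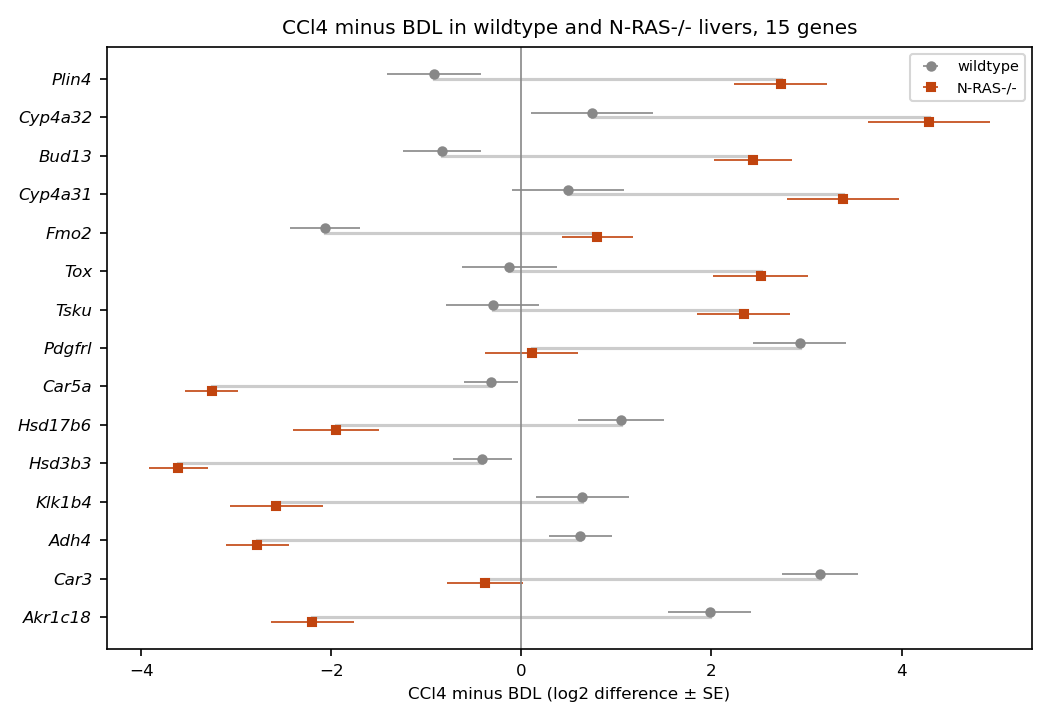
Log2 difference of CCl4 minus BDL (horizontal axis, SE bars) in wildtype (circles) and N-RAS-/- (squares) livers for 15 of the genes with the largest genotype differences. Squares lie right of circles for 7 genes from Plin4 to Tsku and left of them for 8 genes from Pdgfrl to Akr1c18.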

How the data were processed

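Total RNA from 24 livers (8 groups of 3) was hybridized to Affymetrix mouse arrays. The authors deposited normalized values for 22206 probe sets, as log2 signal in 1 table and as group means of the linear signal in another, which matched means of the log2 values turned back to the linear scale. The processing notes name MAS5 without its role, and the normalization method is not given in the sources used here. The labels name biotin as the label and a Cy3 kit in the protocol. Columns of the authors' own comparisons hold fold changes and p-values and were not used. Deposited log2 values ranged from 2.01 to 13.62 and array medians from 5.549 to 5.704. The number of arrays limits the precision.

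Probe sets with 1 symbol (21367) were kept, those with several (836) or none (3) left out, and the probe set with the highest mean taken for each of 21144 genes. limma 3.58.1 in R 4.3.3 (lmFit, contrasts, eBayes) fitted 1 coefficient per group over all 24 arrays, since the study's methods give no test for arrays, with Benjamini-Hochberg adjustment over all genes and calls at 0.05. The fit was tested on simulated data. Tables and figures were made with pandas 2.3.3 and matplotlib 3.10.9. Of 1135 genes in 51 lists, 1095 were measured. Members, lists and tests were chosen with earlier results of these data known. Named genes were the 15 largest rises and 15 largest falls among called genes with non-overlapping groups and a higher group mean of at least 7, up to 6 members of each list by adjusted p with its defining members, the 8 largest genotype differences in each direction, and check genes. Others are marked in the text. Some genes that these rules name are not reported here.

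Alternatives covered the arrays in the fit, centring on array medians, quantile scaling, leaving out genes below the 40th percentile of mean signal, a floor of 32, the mean of probe sets, eBayes with trend, array weights, the methods' t-test, a 2-fold threshold, a Y-linked covariate and leaving out each array. Those for lists and for each injury against its control were added after seeing the data.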

Additional observations from a re-analysis of the deposited data

Results flagged for a closer look

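The difference between the injuries differed between genotypes in the limma fit of the genotype difference over all genes. Of the largest called differences, 15 are given, 7 higher and 8 lower, as N-RAS-/- minus wildtype on the log2 scale.

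Higher in N-RAS-/- livers was Plin4, a lipid droplet coat protein, by 3.65, with 2.73 in N-RAS-/- and -0.92 in wildtype livers. The fatty acid hydroxylases Cyp4a32 and Cyp4a31 differed by 3.54 and 2.89, and Bud13, a splicing factor, by 3.28. Fmo2, a flavin monooxygenase, differed by 2.87. Tox, a transcription factor, differed by 2.65 and Tsku, a secreted protein of the liver, by 2.64.

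Lower in N-RAS-/- livers were Akr1c18, a steroid dehydrogenase, by -4.18, and Car3, a carbonic anhydrase, by -3.52. Akr1c18 read 8.22 in the BDL array N11 and 5.47 and 6.12 in the other BDL arrays. Car3 had a direct difference of -0.38 that did not pass in N-RAS-/- livers and of 3.14 in wildtype livers. Adh4, an alcohol dehydrogenase, differed by -3.39 and Klk1b4, a kallikrein, by -3.22. The steroid dehydrogenases Hsd3b3 and Hsd17b6 differed by -3.20 and -3.00. Car5a, the mitochondrial carbonic anhydrase of ureagenesis, differed by -2.94, and Pdgfrl by -2.82. Pdgfrl had a direct difference of 0.11 in N-RAS-/- and of 2.93 in wildtype livers.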

How the results depend on the processing

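No paired analysis was possible because the groups share no replicate numbers. With 3 arrays per group, separate experiments and no stated normalization, the counts describe these arrays. The direct comparison (2636 higher, 2357 lower) gave 2107 to 2337 and 1942 to 2074 with 1 array left out, 1298 and 1057 by the methods' t-test after Benjamini-Hochberg (3182 and 2743 unadjusted), and 624 and 850 with at least 2-fold. After subtraction of the controls (931 higher, 1003 lower) the higher count was 608 with the Y-linked term and 424 with 2-fold, and the ranges with 1 array left out were 650 to 946 and 787 to 948. For oil against sham (137 and 119) the Y-linked term gave 25 and 20, 2-fold 56 and 57, the filter 198 lower, array weights 187 lower, and leaving out 1 array 32 to 115 higher and 34 to 137 lower. For CCl4 against oil, 2-fold gave 785 and 774 (with 1 array left out, 2476 to 2835 and 1702 to 1905). For BDL against sham (1642 and 951) the Y-linked term gave 730 and 337, 2-fold 689 and 292, median centring 1428 lower, and leaving out 1 array 1176 to 1432 and 617 (without N11) to 751. For the genotype difference, 2-fold gave 495 and 363, and leaving out 1 array 649 to 926 and 440 to 657.

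By the methods' t-test after adjustment, the lower counts were 7 for bile acid synthesis, 5 for duct genes, 7 for P450s, 5 for pericentral genes, 1 for collagens, 3 for Kupffer cells, 6 for MHC class II and 0 for DNA replication and mitosis, where 6 passed unadjusted. The higher counts by that test were 9 for interferon-stimulated genes, 1 for the stress response, 6 for PPAR-alpha targets, 5 for the MAP kinase cascade and 5 for the EGF family list. With 2-fold, 5 uptake and canalicular genes, 8 coagulation genes, 3 collagens and 4 MHC class II genes were lower, and 4 cascade genes higher. Duct genes lower were 10 with the filter, 10 with the floor and 10 by the unadjusted t-test. Collagens lower were 5 with the 6 compared arrays alone, 5 with the floor and 5 by the unadjusted t-test. DNA replication and mitosis genes lower were 11 with the filter and 12 with the floor. With 1 array left out, duct genes ranged from 11 to 18, DNA replication from 12 to 27, collagens from 3 to 10 and PPAR-alpha targets from 6 to 9. Des turned from -0.54, not called, to 0.69 without N12 (adjusted p = 0.0382), and without N11 it was -1.17. The causes were not tested.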

Other observations

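Further gene lists were counted in N-RAS-/- livers, where 12.5% of all genes tested were higher in CCl4 and 11.1% lower. Of 28 cytokine and NF-kB target genes, 6 were lower in CCl4 and 1 higher (median -0.24), with Tnf at -1.27 and Il18 at -1.32 on the log2 scale. Of 25 acute phase genes, 7 were lower and 2 higher (median -0.32). Orm2, an orosomucoid, read 12.39, 12.56 and 12.43 in BDL and 10.66, 11.03 and 11.06 in CCl4, 2.91-fold lower, and BDL raised it over sham by 2.08. BDL raised 17 of the 25 over sham, and CCl4 raised 9 over oil. Of 36 apoptosis and necroptosis genes, 10 were lower and 3 higher (median -0.20). Casp12, an inflammatory-type caspase, read 7.36, 6.47 and 7.18 in BDL and 4.72, 4.41 and 4.25 in CCl4, 5.82-fold lower.

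Hjv, the hemojuvelin that induces hepcidin, was 9.20-fold lower in CCl4 with 9.47, 9.26 and 9.08 in BDL and 5.21, 6.05 and 6.95 in CCl4. Of 17 iron and heme genes, 8 were lower and 2 higher (median -0.32), while 5 were called lower after the controls were subtracted. Lyve1, the hyaluronan receptor of sinusoidal endothelium, read 6.52, 7.71 and 8.12 in BDL and 9.59, 9.72 and 9.26 in CCl4, 4.21-fold higher. It was 1 of 2 endothelial genes of 23 that passed, both higher, which is below the share over all genes, and the others included Stab2 at 0.30 and Clec4g at -0.11. Of 20 clock genes 3 were lower and 1 higher between the injuries, with the lower share near that over all genes, while 6 were lower and 3 higher in oil than in sham livers, Dbp by -4.71 (adjusted p = 0.00626).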
